A study of Mus musculus with 8 samples.

Results

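The genes that make, break down and read out the cyclic nucleotides cAMP and cGMP were followed in the thoracic aorta of mice with and without Tsc1 in smooth muscle. Members were taken by symbol: all adenylyl cyclases (Adcy), guanylyl cyclases (Gucy) and phosphodiesterases (Pde) numbered in the expression table apart from Pde4dip and Pde6d, the catalytic and regulatory subunits of protein kinase A, the protein kinases G, and the Popeye domain genes Bves, Popdc2 and Popdc3. This gave 54 of the 23993 genes in the table. Of these, 33 had a mean of at least 1 FPKM (a fragment count corrected for transcript length and sequencing depth) over the 8 libraries and were tested, and 21 were below that level.

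The series holds 8 bulk RNA sequencing libraries of thoracic aortas from male C57BL/6 mice at 24 weeks of age, 4 controls and 4 knockouts. Both groups had the mT/mG fluorescent reporter and Myh11-CreERT2, in which the smooth muscle myosin gene drives a Cre that tamoxifen switches on, and both received tamoxifen at 1.5 weeks. Controls were Tsc1+/+, and knockouts were Tsc1fl/fl mice in which Cre removes Tsc1 from the cells that express Myh11, so that other cells of the wall keep it. Tsc1 encodes hamartin, a brake on the growth kinase mTORC1. Whole crushed aortas were used without cell sorting, although the labels give smooth muscle cells as the cell type. The labels do not say that each library is a separate mouse, and the p-values then measure only the spread between these libraries.

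Adenylyl cyclases make cAMP under the control of G proteins, and soluble guanylyl cyclase makes cGMP in response to nitric oxide. The membrane guanylyl cyclases Npr1 and Npr2 make cGMP in response to natriuretic peptides. In vascular smooth muscle both nucleotides favour relaxation, largely through protein kinase A and protein kinase G. Phosphodiesterases end the signal, and Popeye domain proteins are membrane proteins of muscle that bind cAMP.

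Smooth muscle contractile markers were abundant in all libraries, with sums over 12 genes of 18766 to 19269 FPKM in controls and 12240 to 16554 FPKM in knockouts. Of the 12, 7 fell, against 15% of all tested genes. Tsc1 was 4.03, 4.82, 4.95 and 6.32 FPKM in controls 1 to 4 and 2.99, 3.58, 3.37 and 3.71 FPKM in knockouts 1 to 4 (log2 difference -0.44, SE 0.12, adjusted p = 0.019), and values over the whole gene do not separate the recombined transcript. Fat cell markers (12 genes, none at 0) summed to 1143 FPKM in control 1, 382 to 467 FPKM in the other controls and 341 to 685 FPKM in knockouts. Striated muscle markers (16 genes) summed to 343 FPKM in control 4, 179 in knockout 1, 163 in knockout 4 and 48.9 to 90.6 FPKM in the other 5 libraries. These sums merge different patterns. In control 4, knockout 1 and knockout 4, Acta1 was 65.0, 0.116 and 0.0731 FPKM. Myh6 was 0.129, 25.6 and 17.0 FPKM there, and Mb 49.65, 32.8 and 23.7 FPKM. Tnnt2 was 31.1 to 39.1 FPKM in controls and 45.6 to 94.9 FPKM in knockouts, and was most of the sum in the other 5 libraries. Knockouts 1 and 4 also held 150.3 and 187 FPKM of Nppa, an atrial hormone gene, against 0.168 to 0.353 FPKM elsewhere. Libraries 1 and 3 stood apart from libraries 2 and 4 in both genotypes on the second principal component, with 16.6% of the variance. In a bulk sample fewer cells of a type and less RNA per cell cannot be told apart.

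Among the 33 tested members 7 rose and 5 fell in the knockout aortas and 21 did not pass an adjusted p of 0.05. That is 36.4% called, against a background of 32.2% of all 12107 tested genes, and 21.2% higher and 15.2% lower against 17.1% and 15%. The share of members called was therefore near that of the whole table. The median log2 difference was 0.01 for both the members and all tested genes, and the median size without sign was 0.26 for the members and 0.19 for all tested genes. With all libraries scaled to an equal sum over genes other than small RNAs, 8 members were higher and 3 lower, and the share of higher genes among all calls moved from 53.3% to 68.8%. All 4 knockouts lay above all 4 controls for 8 tested members and below them for 6, together 42.4%, against 33.9% of all tested genes. Control 4, knockout 1 and knockout 4 had the highest striated muscle marker sums. Without these libraries only 3 controls and 2 knockouts remained. In that fit 3 members were called (Bves, Adcy7 and Pde1b), and 1591 of all 12107 tested genes, against 3893 with all 8 libraries. The groups of the 12 called members did not overlap, so leaving out libraries could not change their sign.

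**Figure D1:**
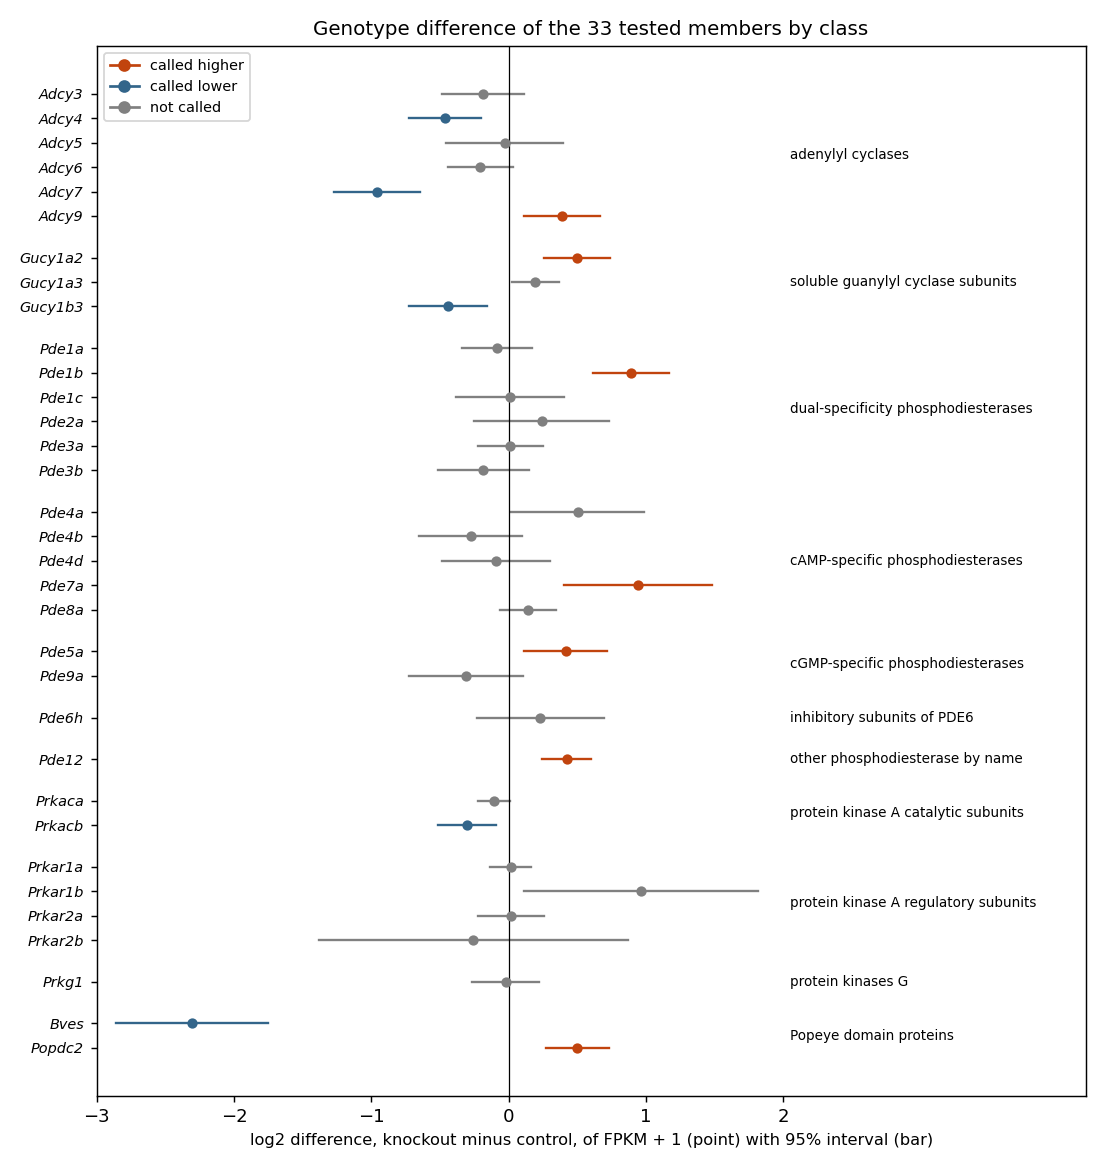
Log2 difference of FPKM + 1, knockout minus control, for each of the 33 tested members (points, with the 95% interval of the difference as bars; n = 4 libraries per genotype), ordered by class on the vertical axis. Bves lies at -2.31, farthest from 0, Adcy7 at -0.96, and Pde7a and Pde1b at 0.94 and 0.89.

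Of 10 adenylyl cyclases 6 were tested. Adcy7 and Adcy4 fell, Adcy9 rose, and Adcy3, Adcy5 and Adcy6 did not pass. Adcy7 and Adcy4 belong, with Adcy2, to the group of adenylyl cyclases that G protein beta-gamma subunits stimulate. Adcy7 (chromosome 8, 88272190 to 88329965 in mm10) was 22.7, 32.0, 28.5 and 30.2 FPKM in controls 1 to 4 and 12.3, 17.0, 11.8 and 15.5 FPKM in knockouts 1 to 4. Every knockout was below every control, and the mean went from 28.4 ± 4.06 to 14.1 ± 2.51 FPKM (SD, n = 4), 2.01-fold lower. The log2 difference was -0.96 (SE 0.14, adjusted p = 0.00114), and it was -1.02 between the odd-numbered libraries and -0.90 between the even-numbered ones.

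Adcy4 (chromosome 14, 55769056 to 55784095) was 6.94, 9.63, 7.35 and 8.73 FPKM in controls and 6.28, 5.83, 5.77 and 4.59 FPKM in knockouts. The groups did not overlap, with knockout 1 closest to the controls. The log2 difference was -0.47 (SE 0.12, adjusted p = 0.0149), and it was -0.21 and lost its call (adjusted p = 0.144) between the odd-numbered libraries alone. Endothelial markers moved the same way: 12 genes, none at 0 in every library, summed to 282 to 373 FPKM in controls and 163 to 228 FPKM in knockouts. Of the 11 tested, 8 fell, against 15% of all tested genes. The fall was not particular to that list. Of 10 adventitial fibroblast markers 5 fell and 0 rose, and of 7 tested Schwann cell and neuron markers 4 fell and 1 rose. Of 12 macrophage markers 0 were called. The part of these cell types in the Adcy4 difference was not tested.

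Adcy9, a widely expressed cyclase, was 8.17, 11.1, 7.97 and 11.02 FPKM in controls and 12.8, 12.1, 14.5 and 11.4 FPKM in knockouts (chromosome 16, 4284886 to 4437236). Knockouts 2 and 4 were close to controls 2 and 4. Its log2 difference of 0.39 (SE 0.12, adjusted p = 0.0403) was 0.69 between odd-numbered and 0.08 between even-numbered libraries. The call was lost without control 1, control 3, knockout 1, knockout 2 or knockout 3, with log2 differences of 0.32, 0.31, 0.38, 0.41 and 0.32, and in all under 10 of 21 alternatives.

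The most abundant cyclase was Adcy5, a calcium-inhibited cyclase, with 66.2% of the summed adenylyl cyclase FPKM in controls and 71.4% in knockouts. It was 165, 197, 184 and 204 FPKM in controls and 136, 235, 149 and 236 FPKM in knockouts. Knockouts 1 and 3 lay below all controls and knockouts 2 and 4 above all of them. The log2 difference over all libraries was -0.03 (95% interval -0.45 to 0.40), and it was -0.29 between odd-numbered and 0.23 between even-numbered libraries, where it passed as higher (adjusted p = 0.0403). Adcy6, the close relative of Adcy5, was 39.2 ± 4.21 and 33.9 ± 4.14 FPKM in controls and knockouts, with a log2 difference of -0.21 (95% interval -0.44 to 0.03) that was 0.05 between odd-numbered and -0.46 between even-numbered libraries, where it passed as lower (adjusted p = 0.0127). Adcy3 was 9.16 ± 0.993 and 8.01 ± 1.61 FPKM, with an interval of -0.48 to 0.11. An exon of Adcy3 overlaps the gene Cenpo on the opposite strand, and an exon of Adcy6 overlaps an antisense gene, and the strand setting of the counting is not given in the sources used here.

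Below the tested level, Adcy2 was 0.128 to 0.350 FPKM in controls and 1.17, 1.02, 1.16 and 0.270 FPKM in knockouts. Knockout 4 was within the control range, and the other knockouts were above it. Adcy1, a calcium-stimulated cyclase, was 0.655, 0.712, 0.597 and 0.652 FPKM in controls and 0.180, 0.549, 0.202 and 0.652 FPKM in knockouts, low in knockouts 1 and 3. Adcy8 and Adcy10 stayed at or under 0.144 FPKM in every library.

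Soluble guanylyl cyclase, the nitric oxide receptor, is a dimer of an alpha and a beta subunit. Its beta subunit transcript fell while a minor alpha subunit transcript rose. The table uses the older symbols Gucy1a3 and Gucy1b3 for the genes now called Gucy1a1 and Gucy1b1, which are neighbours on chromosome 3 with 17.7 kb between them. Gucy1b3 (chromosome 3, 82032004 to 82074711) was 83.5, 79.0, 82.7 and 75.7 FPKM in controls and 50.3, 69.9, 49.1 and 69.3 FPKM in knockouts. Knockouts 1 and 3 were far below the controls, and knockouts 2 and 4 were just below them. The log2 difference was -0.44 (SE 0.12, adjusted p = 0.026), with -0.73 between odd-numbered and -0.15 between even-numbered libraries. The call was lost without control 1, control 2, control 3, knockout 1 or knockout 3, with log2 differences of -0.42, -0.45, -0.43, -0.37 and -0.36. It was also lost between even-numbered libraries alone (adjusted p = 0.103) and with all libraries scaled to an equal sum (-0.36, adjusted p = 0.0507), in all under 8 of 21 alternatives.

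Gucy1a3 was 73.3, 72.4, 60.0 and 71.6 FPKM in controls and 82.0, 76.9, 74.8 and 83.3 FPKM in knockouts. Every knockout lay above every control, yet the log2 difference of 0.19 (95% interval 0.02 to 0.37) did not pass (adjusted p = 0.0819). It passed with all libraries scaled to an equal sum (0.27, adjusted p = 0.028). Within a library, Gucy1b3 was 1.14, 1.09, 1.38 and 1.06 times Gucy1a3 in controls and 0.614, 0.909, 0.656 and 0.832 times in knockouts. The ratio was thus above 1 in each control and below 1 in each knockout. Gucy1a2, the second alpha subunit (chromosome 9, 3532349 to 3905791), was 1.38, 1.11, 0.821 and 1.14 FPKM in controls and 2.04, 1.88, 1.76 and 2.23 FPKM in knockouts. Its groups did not overlap (log2 difference 0.50, SE 0.11, adjusted p = 0.008).

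The sequences before the annotated starts of the 2 soluble guanylyl cyclase genes that passed are shown because these genes went in opposite directions. They are the 250 bases before the start from RefSeq (GRCm38.p6, the assembly of mm10), for Gucy1b3 at chr3:82074712-82074961 on the minus strand and for Gucy1a2 at chr9:3532099-3532348 on the plus strand. Capitals mark TGACG, the core shared with the cAMP response element, searched on both strands (CGTCA on the strand shown), and CACGTG, the core of the E-box.
Gucy1b3: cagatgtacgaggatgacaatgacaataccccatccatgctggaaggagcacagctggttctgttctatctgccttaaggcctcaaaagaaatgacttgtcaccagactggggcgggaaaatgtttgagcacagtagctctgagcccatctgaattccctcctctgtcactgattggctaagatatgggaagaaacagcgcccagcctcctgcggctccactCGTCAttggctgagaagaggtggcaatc
Gucy1a2: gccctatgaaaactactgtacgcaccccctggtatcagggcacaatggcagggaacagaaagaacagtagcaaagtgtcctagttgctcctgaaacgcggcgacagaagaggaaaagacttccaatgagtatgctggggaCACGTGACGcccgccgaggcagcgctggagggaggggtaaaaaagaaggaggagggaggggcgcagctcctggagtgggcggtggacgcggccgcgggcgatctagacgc
CGTCA begins at -28 from the start in Gucy1b3. In Gucy1a2 CACGTG and TGACG overlap. TGACG is present in 17.8% of all 32851 windows of this length and CACGTG in 6.02%. Windows were found for 41 members, 81 in all, of which 19.8% hold TGACG and 7.41% CACGTG. A match describes the letters of the window and is not a measured site.

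The membrane guanylyl cyclases numbered as Gucy2 were scarce. Gucy2g was 0.0381 to 0.131 FPKM in controls and 0.280 to 0.505 FPKM in knockouts, without overlap, and Gucy2d was listed at 0 in all 8 libraries. Gucy2c, Gucy2e and Gucy2f, and the soluble subunit gene Gucy1b2, stayed at or under 0.0622 FPKM. The membrane guanylyl cyclases that serve as natriuretic peptide receptors carry other symbols, Npr1 and Npr2, and both rose. Npr1 was 112, 135, 132 and 123 FPKM in controls and 190.3, 202, 192 and 196 FPKM in knockouts (log2 difference 0.64, SE 0.07, adjusted p = 2.71e-04). Npr2 went from 45.5 ± 5.69 to 55.0 ± 2.04 FPKM (adjusted p = 0.0394).

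Phosphodiesterases showed 4 genes that rose and 0 that fell among 15 tested, of 24 in the table. The 4 called by limma were Pde1b, Pde7a, Pde5a and Pde12, or 26.7% higher against 17.1% of all tested genes, while 15% of all tested genes were lower. Without Pde12, which acts on another substrate, and the inhibitory subunit Pde6h, 3 of 13 rose (23.1%) and 0 fell. The median log2 difference of the 15 was 0.14. Pde1b, a calcium and calmodulin-stimulated enzyme that splits both nucleotides, was 2.17, 2.27, 2.10 and 2.62 FPKM in controls and 5.83, 4.69, 6.13 and 3.95 FPKM in knockouts (chromosome 15, 103503034 to 103530056). Every knockout exceeded every control, and the mean was 2.25-fold higher. The log2 difference was 0.89 (SE 0.12, adjusted p = 9.03e-04), with 1.15 between odd-numbered and 0.63 between even-numbered libraries. Its relatives Pde1a and Pde1c did not pass: Pde1a was 8.35 ± 1.45 and 7.75 ± 0.646 FPKM (95% interval of the log2 difference -0.34 to 0.17) and Pde1c 1.41 ± 0.532 and 1.41 ± 0.390 FPKM (-0.38 to 0.40). The log2 difference of Pde1c was -0.32 between odd-numbered and 0.34 between even-numbered libraries.

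Pde7a, a cAMP-specific enzyme of high affinity, was 4.01, 4.16, 3.75 and 3.53 FPKM in controls and 13.0, 5.73, 10.97 and 5.69 FPKM in knockouts (chromosome 3, 19223108 to 19311322). All knockouts were above the narrow control range, knockouts 1 and 3 by far the most. The log2 difference was 0.94 (SE 0.24, adjusted p = 0.0162), with 1.41 between odd-numbered and 0.47 between even-numbered libraries, and it passed in both. Pde7b, its paralog, was under the tested level at 0.785 ± 0.134 and 0.704 ± 0.333 FPKM.

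Pde5a, the cGMP-specific enzyme that sildenafil inhibits, was 45.7, 48.8, 40.5 and 46.3 FPKM in controls and 49.99, 71.0, 52.0 and 73.1 FPKM in knockouts (chromosome 3, 122729158 to 122859374). Here knockouts 2 and 4 were the high ones, with knockouts 1 and 3 just above the controls. The log2 difference was 0.41 (SE 0.13, adjusted p = 0.0416), with 0.24 between odd-numbered and 0.59 between even-numbered libraries. The call was lost without any single library other than knockout 1 or knockout 3, with log2 differences of 0.42, 0.45, 0.36 and 0.43 without controls 1 to 4 and 0.34 and 0.33 without knockouts 2 and 4. It was lost under 13 of 21 alternatives in all, among them quantile normalization (adjusted p = 0.053), library weights (0.0565) and odd-numbered libraries alone (0.0994). Pde5a made up 97.1% of the summed FPKM of cGMP-specific phosphodiesterases in controls and 98.5% in knockouts. Pde9a, the other tested gene of that class, was 1.35 ± 0.459 and 0.890 ± 0.332 FPKM, with an interval of -0.72 to 0.10. It reached the tested level only through the controls.

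Pde12 is, despite its symbol, a mitochondrial nuclease and not a cyclic nucleotide phosphodiesterase. It was 4.21, 3.77, 3.90 and 3.26 FPKM in controls and 5.85, 5.21, 5.22 and 5.31 FPKM in knockouts (chromosome 14, 26664117 to 26669846), without overlap (log2 difference 0.42, SE 0.08, adjusted p = 0.0039). Its exons share 527 bases with Arf4 on the opposite strand, which was 118 ± 4.73 and 112 ± 6.81 FPKM.

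The most abundant phosphodiesterases of the other classes did not pass. Pde3a, a cAMP-splitting enzyme that cGMP inhibits and the main member of the dual-specificity class, was 31.5 ± 2.29 and 31.9 ± 4.58 FPKM, with an interval of the log2 difference of -0.23 to 0.25. Pde4a, a cAMP-specific enzyme, was 14.7, 23.4, 14.1 and 28.5 FPKM in controls and 24.9, 31.1, 25.3 and 30.3 FPKM in knockouts. Controls 1 and 3 were the low libraries, control 2 was just below the lowest knockout, and control 4 was within the knockout range. Its log2 difference of 0.50 (95% interval 0.02 to 0.98) had an adjusted p of 0.104, and it passed without control 4 (0.68, adjusted p = 0.0243) and between the odd-numbered libraries (0.76, against 0.24 between the even-numbered ones).

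Pde4b was 15.4 ± 3.54 and 12.4 ± 2.13 FPKM (95% interval -0.65 to 0.10) and Pde4d 7.20 ± 0.935 and 6.84 ± 1.996 FPKM (-0.49 to 0.30). Pde2a, Pde3b, Pde6h and Pde8a had log2 differences between -0.18 and 0.24 and intervals that include 0. Pde3b, abundant in fat cells, was 5.59 FPKM in control 1, the library with the highest fat cell marker sum, and 2.64 to 3.96 FPKM in the other 7. The part of fat cells in the Pde3b values was not tested. Pde2a shares 3955 exon bases with Gm45837 on the same strand, and its values are less certain. The remaining phosphodiesterases were below the tested level: Pde8b reached 1.28 FPKM and Pde7b 1.04 FPKM at most, Pde4c 0.448, Pde6g 0.317 and Pde10a 0.298 FPKM, Pde6a, Pde6c and Pde11a stayed at or under 0.0560 FPKM, and Pde6b was listed at 0 throughout.

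**Figure D2:**
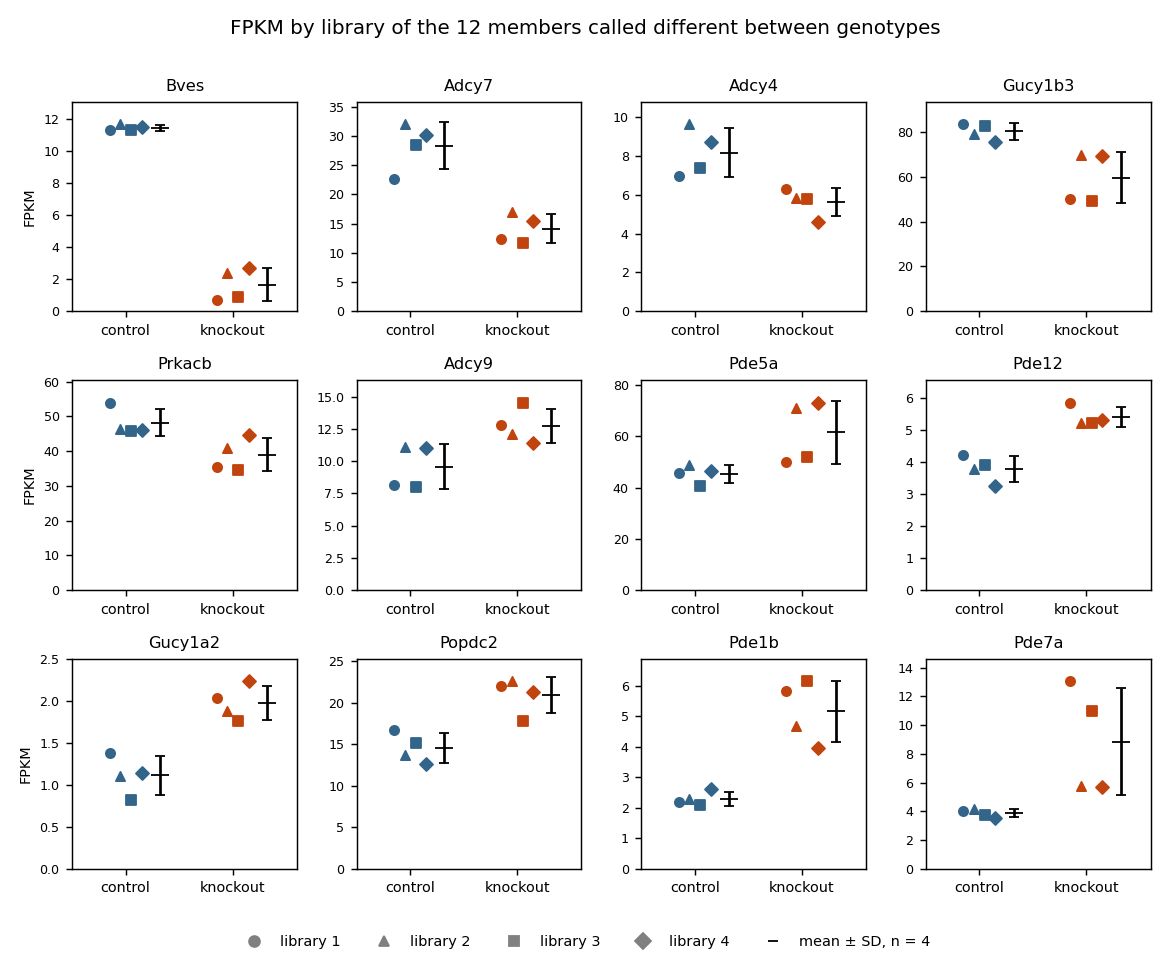
FPKM in each library (vertical axes, each from 0) of the 12 members called different between genotypes, with controls and knockouts side by side, 1 symbol per library number, and mean ± SD (n = 4) beside them. Bves is between 11.3 and 11.7 FPKM in controls and at most 2.70 FPKM in knockouts, and Pde7a, Pde5a, Gucy1b3 and Bves show knockouts 1 and 3 apart from knockouts 2 and 4.

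Protein kinase A is made of catalytic subunits (Prkaca, Prkacb) held by regulatory subunits until cAMP binds. Prkacb was 53.9, 46.4, 45.9 and 46.2 FPKM in controls and 35.6, 41.0, 34.5 and 44.7 FPKM in knockouts (chromosome 3, 146729579 to 146812946). Knockout 4 came within 2 FPKM of the lowest control, and the groups did not overlap. The log2 difference of -0.30 (SE 0.09, adjusted p = 0.0376) was -0.50 between odd-numbered and -0.11 between even-numbered libraries. Its call was lost without any single library other than knockout 4, with log2 differences of -0.25, -0.32, -0.32 and -0.32 without controls 1 to 4 and -0.26, -0.33 and -0.25 without knockouts 1 to 3, and in all under 14 of 21 alternatives. Prkaca was 50.4 to 54.4 FPKM in controls and 46.4 to 50.01 FPKM in knockouts, also without overlap, with a log2 difference of -0.11 (95% interval -0.22 to 0.01) that did not pass (adjusted p = 0.141). The summed catalytic subunits were 96.9 to 107 FPKM in controls and 82.0 to 94.7 FPKM in knockouts.

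None of the 4 regulatory subunit genes passed the limma test at an adjusted p of 0.05. Prkar1a, with 80.5% of the summed regulatory subunit FPKM in controls, was 153 ± 8.62 and 155 ± 10.3 FPKM (95% interval of the log2 difference -0.13 to 0.16), and Prkar2a was 31.3 ± 1.35 and 31.9 ± 5.01 FPKM (-0.22 to 0.26). Prkar1b was 1.38, 0.596, 1.02 and 0.904 FPKM in controls and 4.32, 1.25, 6.48 and 1.35 FPKM in knockouts. Its control mean of 0.974 FPKM was below the tested level, which it reached only through the knockouts, where it was high. Its exons share 341 bases with Gm15672 on the same strand. Knockouts 1 and 3 were high while knockouts 2 and 4 were within the control range, and the log2 difference was 0.96 (95% interval 0.11 to 1.82, adjusted p = 0.0818). It passed without knockout 2 (1.22, adjusted p = 0.0405), without knockout 4 (1.19, adjusted p = 0.0499) and between odd-numbered libraries (1.53, adjusted p = 0.00956). Prkar2b, a subunit of fat and brain, was 11.4 FPKM in control 1 and 7.07 FPKM in knockout 3, the highest of each genotype, and 1.22 to 4.14 FPKM in the others. Its log2 difference was -0.26 (95% interval -1.38 to 0.87) and was 0.18 without control 1. Those 2 libraries also had the highest fat cell marker sums of their genotype, 1143 and 685 FPKM. The part of fat cells in the Prkar2b values was not tested.

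Prkg1, the cGMP-dependent kinase of smooth muscle, was 13.5, 10.96, 10.4 and 12.8 FPKM in controls and 11.6, 11.4, 10.2 and 13.8 FPKM in knockouts. The ranges nearly coincided, and the log2 difference was -0.02 (95% interval -0.26 to 0.22). Prkg2 was 0.203 to 0.647 FPKM in controls and 0.115 to 0.180 FPKM in knockouts, below the tested level and without overlap.

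The Popeye genes showed the largest difference of any member and did not move together. Bves fell, Popdc2 rose, and Popdc3 was lower at a low level. Bves (chromosome 10, 45335735 to 45372484) was 11.3, 11.7, 11.3 and 11.5 FPKM in controls and 0.687, 2.39, 0.876 and 2.70 FPKM in knockouts. The controls were nearly equal, and every knockout was far below them. The mean went from 11.4 ± 0.185 to 1.66 ± 1.03 FPKM, 6.87-fold lower, and the log2 difference was -2.31 (SE 0.24, adjusted p = 2.71e-04), with -2.79 between odd-numbered and -1.83 between even-numbered libraries. The contractile marker sum had the same order within the knockouts as to odd and even numbers, at 12240 and 13073 FPKM in knockouts 1 and 3 and 16554 and 15424 FPKM in knockouts 2 and 4. Its part in the difference was not tested. Leaving out the 3 libraries with the highest striated muscle marker sums gave -2.30.

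Popdc3 lies next to Bves on chromosome 10, with 17.3 kb between the genes. It was 0.686, 0.648, 1.01 and 0.566 FPKM in controls and 0.0901, 0.0517, 0.0267 and 0.170 FPKM in knockouts, and the groups were far apart. In the fit without a filter on low values its log2 difference was -0.67 (SE 0.08, adjusted p = 0.00114), on a scale that compresses such low values. In that fit 4 of the 19 fitted members below 1 FPKM passed, a share similar to that of all genes (3959 of 18601). Popdc3 and Prkg2 (adjusted p = 0.0497) passed as lower, and Gucy2g (0.00299) and Adcy2 (0.0402) as higher.

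Popdc2, on chromosome 16 (38362161 to 38378216), was 16.7, 13.7, 15.2 and 12.6 FPKM in controls and 22.1, 22.6, 17.8 and 21.3 FPKM in knockouts. Its exons share 89 bases with Gm21987 on the same strand. Every knockout was above every control, with knockout 3 the closest (log2 difference 0.50, SE 0.10, adjusted p = 0.00611). Between odd-numbered libraries alone the difference was 0.30 and did not pass (adjusted p = 0.149), and between even-numbered ones it was 0.70. The atrial gene Nppa was 150.3, 0.203, 0.208 and 187 FPKM in knockouts 1 to 4. The part of striated muscle in the Popdc2 difference was not tested. Without the 3 libraries with the highest striated muscle marker sums the difference was 0.38 and did not pass (adjusted p = 0.119). That fit held only 3 controls and 2 knockouts, and 1591 of all tested genes passed in it, against 3893 in the main fit. Within a library, Popdc2 was 1.10 to 1.48 times Bves in controls and 7.91 to 32.2 times Bves in knockouts.

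**Figure D3:**
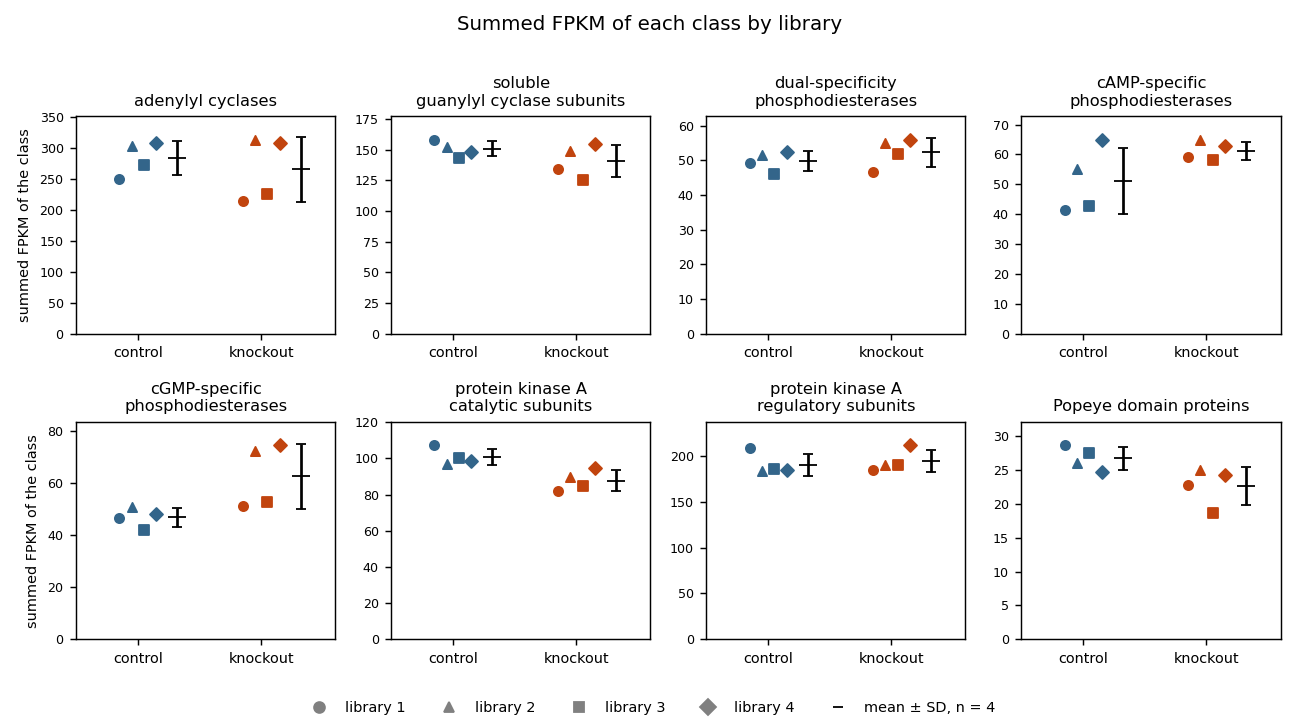
Summed FPKM of the members of 8 classes (vertical axes, each from 0) in each library of each genotype, with 1 symbol per library number and mean ± SD (n = 4). The summed cGMP-specific phosphodiesterases are 41.7 to 50.6 FPKM in controls and 51.0 to 74.4 FPKM in knockouts, while the adenylyl cyclase and soluble guanylyl cyclase sums overlap between genotypes.

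Adenylyl cyclases summed to 283 ± 27.7 and 265 ± 52.7 FPKM in controls and knockouts, soluble guanylyl cyclase subunits to 151 ± 6.19 and 141 ± 13.3 FPKM, and dual-specificity phosphodiesterases to 49.8 ± 2.84 and 52.3 ± 4.199 FPKM. The cAMP-specific phosphodiesterases were 41.5, 55.3, 42.8 and 64.9 FPKM in controls and 58.1 to 64.7 FPKM in knockouts. Controls 1 and 3 were low there and control 4 was as high as the knockouts. As shares of the class sum, Popdc2 went from 54.5% of Popeye FPKM in controls to 92.3% in knockouts, and Gucy1a3 from 46.0% to 56.3% of soluble guanylyl cyclase FPKM.

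The split between odd and even library numbers ran through many members. Knockouts 1 and 3 both lay above or both below knockouts 2 and 4 for 21 of the 33 tested members (63.6%, against 59.7% of all tested genes), and the same held in controls for 23 (69.7%, against 51.9%). In each of the 12 called members every knockout lay on the same side of every control, so the sign could not differ between odd and even libraries. Of the 21 others, 9 had opposite signs. The labels name no batch.

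**Figure D4:**
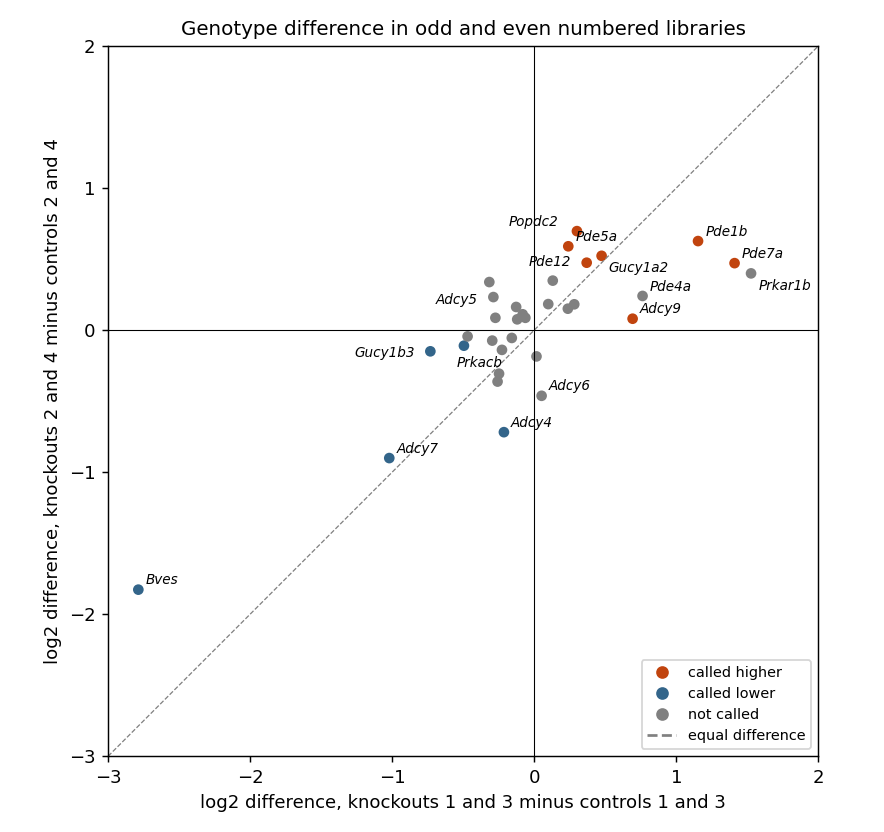
Log2 difference between knockouts and controls in the odd-numbered libraries (horizontal axis) and in the even-numbered libraries (vertical axis), 2 against 2 in each, for the 33 tested members (points), with the dashed line at equal differences. Bves and Adcy7 are low on both axes, Pde7a and Prkar1b are at 1.41 and 1.53 on the odd axis and 0.47 and 0.40 on the even axis, and Adcy5 has opposite signs.

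Among 91 tested genes of the same pathways that are not members, of 120 in the table, 18 rose and 16 fell (37.4% called, against 32.2% of all tested genes). Of the called genes named below, Corin, Drd1a, Hcn2 and Ppargc1a averaged under 1 FPKM in controls. They reached the tested level only through the knockouts, where they were high, and Nr4a3 only through the controls. Such genes enter the counts because of the group in which they are high. On the input side of cGMP, 3 of 9 tested genes rose and 1 fell (median log2 difference 0.28). Corin, the protease that activates atrial natriuretic peptide, went from 0.412 ± 0.224 to 2.96 ± 1.41 FPKM (log2 difference 1.43), beside Npr1 and Npr2 above. Nos3, the endothelial nitric oxide synthase, fell and was 15.2 to 19.2 FPKM in controls and 7.11 to 8.83 FPKM in knockouts (log2 difference -1.02, SE 0.09, adjusted p = 1.15e-04), with the endothelial marker sums given above beside it.

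On the input side of cAMP, 0 of 10 G protein genes and their regulators rose and 1 fell by limma, Gnas, the stimulatory alpha subunit (962 ± 16.9 to 846 ± 38.3 FPKM, log2 difference -0.19). Of 10 tested Gs-coupled receptors 2 rose and 2 fell (median -0.24). Drd1a, a dopamine receptor, was 0.235 to 0.517 FPKM in controls and 2.21 to 4.14 FPKM in knockouts (log2 difference 1.59), and Calcrl, the receptor for calcitonin gene-related peptide and adrenomedullin, went from 11.2 ± 3.07 to 22.9 ± 2.75 FPKM (0.99). Pth1r (-0.48) and Ptger4 (-0.40), receptors for parathyroid hormone and prostaglandin E, fell.

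Of 6 tested genes for exchange factors, cyclic nucleotide channels and the GTPases Rap1a and Rap1b, 3 rose and 2 fell (median 0.12). Rapgef3, the cAMP-activated exchange factor Epac, was 4.17 to 5.51 FPKM in controls and 17.6, 7.72, 18.3 and 8.14 FPKM in knockouts, high in knockouts 1 and 3 (log2 difference 1.19, SE 0.27, adjusted p = 0.0102). Hcn2, a cyclic nucleotide-gated cation channel, was 0.799 to 1.19 FPKM in controls and 7.12, 2.20, 9.22 and 2.32 FPKM in knockouts (1.47, SE 0.37, adjusted p = 0.0154), again high in knockouts 1 and 3. Rapgef2 (-0.52) and Rap1a (-0.29) fell. Rap1b (0.23) was the other gene that rose, named after its value was seen.

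A-kinase anchoring proteins, which place protein kinase A in the cell, had 4 genes higher and 2 lower of 16 tested (median 0.03). Akap2 (0.69) and Akap1 (0.59) rose and Myrip (-0.79) fell, each without overlap. Cmya5 (0.76) rose with overlap. It was 2.54 FPKM in control 4, 0.757 to 1.07 FPKM in the other controls and 2.06 to 3.03 FPKM in knockouts. Both tested exporters of cyclic nucleotides rose: Abcc4 from 1.45 ± 0.0552 to 3.80 ± 0.715 FPKM (0.96) and Abcc5 from 19.8 ± 2.19 to 28.8 ± 3.28 FPKM (0.52). The kinase A inhibitors Pkia and Pkig had log2 differences of 0.26 and 0.30 and did not pass.

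Of 14 tested kinase substrates 2 rose and 4 fell (median -0.02). Hspb6, a small heat shock protein phosphorylated in relaxing muscle, fell from 221 ± 20.7 to 119 ± 30.5 FPKM (-0.92), and so did Tbxa2r, the thromboxane receptor (-0.88), Ppp1r1a, a phosphatase inhibitor (-0.88), and Ppp1r12a, the targeting subunit of myosin phosphatase (-0.63). Kcnma1 (0.43) and Mrvi1 (0.35), a potassium channel and a calcium store protein that kinase G acts on, rose and were named after their values were seen. CREB factors and coactivators had 1 gene higher and 3 lower of 10 (median -0.11): Crem (0.44) rose, and Creb5 (-0.91), Crtc1 (-0.36) and Crtc3 (-0.31) fell. Of 15 cAMP-inducible genes 2 rose (Ppargc1a, 1.08, and Crem) and 1 fell (Nr4a3, -0.99), with a median of -0.31. Fos, an immediate early gene, was 11.9 ± 8.72 and 43.1 ± 74.0 FPKM.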

How the data were processed

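Poly(A)-selected RNA of whole thoracic aortas was sequenced, per the labels' protocols. The authors deposited FPKM, 1 column per library, for 23993 gene symbols. Per the submitters' processing notes the tools included TopHat2, Cufflinks and Cuffdiff and the build was mm10. Their versions, the annotation, the strand setting and any scaling were not given in the sources used here. Fragments shared by overlapping genes may be split between them. From the spacing of values under 0.3 FPKM, depth relative to control 1 was roughly 0.763 (knockout 1) to 2.45 (control 3). Absolute depth is unknown.

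Groups followed the labels. Values were compared as log2(FPKM + 1), which understates changes of low genes, for 12107 genes averaging 1 FPKM or more. limma 3.58.1 in R 4.3.3 was fitted with genotype as the only term and a mean-variance trend, two-sided. Calls required p under 0.05 after Benjamini-Hochberg adjustment over all tested genes. The fit was tested on simulated data. Log2 differences are knockout minus control, with moderated SE and 95% intervals. Called members are given by library, uncalled members of at least 5 FPKM in a group with intervals, and up to 4 called genes per pathway list by size. Coordinates come from RefSeq, exon overlaps from GENCODE M21 (both GRCm38), with Python 3.11.15. Members, lists and alternatives were chosen with earlier results of these data known. Alternatives were other scalings, filters or pseudocounts, library weights, a replicate block, marker covariates, odd or even libraries alone and single libraries left out.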

Additional observations from a re-analysis of the deposited data

Results flagged for a closer look

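In 6 of the 66 groups of 4 libraries examined (33 tested members in each genotype), 1 library lay far from the other 3, by Dixon's test of the gap to its nearest neighbour against the group's range. Chance gives about 1 such group in 20. Control 1 was the far library in 4 of them: Pde3b at 5.59 FPKM (3.58 to 3.71 in the other controls), Prkacb at 53.9 FPKM (45.9 to 46.4), Prkar1a at 166 FPKM (148 to 150.4) and Prkar2b at 11.4 FPKM (2.40 to 3.08). That library also had the highest fat cell marker sum, 1143 FPKM, whose part was not tested. Gucy1a3 was low in control 3, at 60.0 FPKM (71.6 to 73.3), and Pde12 was high in knockout 1, at 5.85 FPKM (5.21 to 5.31).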

How the results depend on the processing

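The 12 called members kept their sign under all 21 alternatives run, and Bves, Adcy7 and Pde1b also kept their call under each of them. Because their groups did not overlap, many alternatives could not change the sign. These include left-out libraries, the replicate block, library weights, and odd or even libraries. The count of called members ran from 8 to 12 with single libraries left out and was 13 with the replicate block. All genes called in the same fits ran from 3154 to 3459 and were 4471 with the block. Same-numbered libraries correlated by 0.0656, 0.138, 0.135 and 0.173 in their deviations from the group means, and control 1 correlated best with knockout 3, so the numbers were not taken as pairs. Under the replicate block Adcy9 (adjusted p = 0.0743) and Prkacb (0.0543) lost their calls and Pde4a (0.0267), Gucy1a3 (0.0407) and Prkar1b (0.0365) gained one. Without the 3 libraries of highest striated muscle markers, an alternative chosen after seeing the data that leaves 3 controls and 2 knockouts, 1591 genes, 3 members and 13 other pathway genes were called, against 3893, 12 and 34. Signs reversed for 11 uncalled members of the 33 tested. With quantile normalization the reversed values were 0.0382 for Adcy5 and -0.00101 for Pde3a. With equal sums without small RNAs the reversed values were 0.052 for Adcy5 and 0.0538 for Prkg1. With even-numbered libraries alone the reversed values were 0.23 for Adcy5, 0.0862 for Pde4d and 0.0754 for Prkg1. With the 3 striated muscle libraries left out the reversed values were 0.0482 for Adcy5, 0.0233 for Pde4d, -0.0747 for Pde1c, -0.11 for Pde6h and -0.054 for Prkar1a. With odd-numbered libraries alone the reversed values were 0.0516 for Adcy6, 0.0156 for Pde1a, -0.32 for Pde1c, -0.0627 for Pde3a, -0.0816 for Prkar1a and -0.13 for Prkar2a. With the striated muscle marker covariate it was -0.0196 for Pde1c. With median-of-ratios scaling it was -0.000554 for Pde3a. With library weights the reversed values were -0.0135 for Pde3a and -0.00464 for Prkar2a. With the fat cell marker covariate the reversed values were -0.0104 for Pde3a, -0.0103 for Prkar2a and 0.18 for Prkar2b. With single libraries left out the ranges were -0.15 to 0.12 for Adcy5, -0.22 to 0.0251 for Pde4d, -0.0698 to 0.15 for Pde1c, -0.0429 to 0.10 for Pde3a, -0.0306 to 0.0537 for Prkar1a, -0.048 to 0.10 for Prkar2a, -0.58 to 0.18 for Prkar2b and -0.0971 to 0.0386 for Prkg1. The cause of these changes was not tested. Members under 1 FPKM rest on few fragments.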
